A study of Sorghum bicolor with 14 samples.

Results

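The stem internode at soft dough was compared with the stem internode at floral initiation, the late and the early end of field development in sorghum (Sorghum bicolor). All loci of the authors' development table that reached 1 FPKM in either column were taken. FPKM is the number of fragments per kilobase of transcript, scaled to the number of mapped fragments of the library. Of 34755 loci, 18568 met this rule (53.4%) and are called measured, and 16187 did not. Both groups are the grain variety M35-1, sown directly in a fertilised soil bed, weeded and watered, and both are middle internodes from which total RNA was sequenced with a stranded kit. Floral initiation is the stage at which the shoot tip turns from leaves to the panicle, and soft dough is a late stage of grain filling. Each group has 2 libraries, and the labels do not say whether these came from separate plants. Both libraries of a group point to the same FPKM column, so each stage has 1 pooled value per locus, and no difference below has a replicate check, an SD or a p-value. Depth per library is unknown. The titles of the floral initiation libraries end in 1 and those of the soft dough libraries in 2. The labels leave this digit unexplained, and it cannot be told apart from the stage.

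Grass internodes first elongate and later thicken and lignify their walls, and in sorghum the stem also stores sugars around and after flowering while the filling grain becomes the main sink. Many genes of growth, wall building and sugar handling are therefore known to change over this span in grass stems. The files name loci only by annotation IDs, and 0 of 34129 IDs were found in the table of gene names that was given. The loci below are therefore described by level, course, length and position, and no function is given to any of them. The 42 gene lists prepared for cell walls, sugars, cell division, photosynthesis and other processes, with the markers of stem, leaf, grain, pollen and phloem, could not be run. The label of the tissue was for the same reason not checked against marker genes.

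Of the 18568 measured loci, 2726 were higher at soft dough (14.7%) and 2604 were lower (14%), by at least 1 on the log2(FPKM + 1) scale, and 13238 were neither. Together the called loci made up 28.7%. The 2 directions were nearly balanced, and the median log2 difference of all measured loci was 0.03. The middle 50% of the loci lay between -0.56 and 0.61, the 5th percentile was -1.82 and the 95th was 1.75. The size classes were alike on both sides: 712 loci were higher by at least 2 log2 units and 738 lower, 232 were higher by at least 3 (1.25%) and 204 lower (1.1%), and 28 were higher by at least 5 and 22 lower. The threshold cuts through a continuous distribution, since 755 loci had an absolute difference between 0.9 and 1 and 694 had one between 1 and 1.1. At the FPKM floor, 269 loci had between 0.9 and 1 FPKM in the higher column and stayed out, and 238 had between 1 and 1.1 and came in. The counts depend on the pseudocount: with 5 FPKM added in place of 1, 1373 loci were higher and 1349 lower. The balance turned with the scaling, from 51.1% of the calls being higher as deposited to 48.4% with median-of-ratios size factors.

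**Figure D1:**
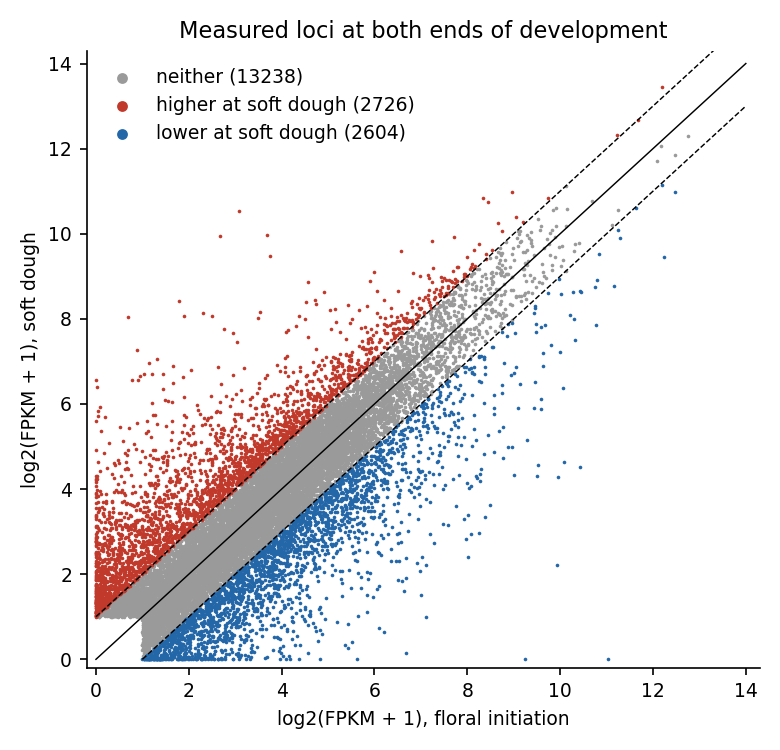
Each point is 1 measured locus, with log2(FPKM + 1) at floral initiation on the x axis and at soft dough on the y axis; the solid line marks equal values and the dashed lines a difference of 1. The 2726 loci above the band (red) and the 2604 below it (blue) are spread over the whole range of levels.

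Among the 1839 higher loci with at least 1 FPKM in both columns, the median ratio of soft dough to floral initiation was 2.99. Among the 1911 lower loci of this kind the median ratio of floral initiation to soft dough was 3.36. The other 887 higher and 693 lower loci were under 1 FPKM at the lower end, where the pseudocount of 1 FPKM understates the change. A switch from under 0.1 FPKM to 5 FPKM or more was seen at 60 loci, and one from 5 FPKM or more to under 0.1 at 35. The numbers listed at exactly 0 at the lower end were 26 and 15. An exact 0 can be a failed estimate, so these loci are only described as listed at 0.

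The called loci carried a large part of the summed FPKM at the end where they were high. The calls were made from these same 2 columns, so a larger share at that end follows from the rule, and only its size is described. The 2726 higher loci held 8.37% of the column sum at floral initiation and 25.3% at soft dough. The 2604 lower loci held 25.2% at floral initiation and 6.47% at soft dough. The gain of the first group summed to 111200 FPKM and the loss of the second to 120714 FPKM. The column sums were close, at 647966 and 653666 FPKM, so gains and losses over all loci must nearly offset each other. The 10 largest single changes made up 19.2% of the gain and 17.8% of the loss, so that most of both was spread over many loci.

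Calls were most frequent among loci with 100 FPKM or more. The pseudocount of 1 FPKM shrinks differences most at low levels, which itself favours fewer calls there. Of the 1537 measured loci with 100 FPKM or more in the higher column, 21.3% were higher and 18.5% lower at soft dough, against 14% and 11.6% of the 5020 loci between 1 and 5 FPKM. The most abundant transcripts of both ends overlapped in part: 20 of the 50 highest loci at floral initiation were also among the 50 highest at soft dough, which is 40% of each list. Of the 50 highest at floral initiation, 26 were lower at soft dough, 21 were neither and 3 were higher. Of the 50 highest at soft dough, 16 were higher than at floral initiation, 29 were neither and 5 were lower. These lists are picked by their level at one end, which itself favours loci that are lower at the other.

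The loci with the largest FPKM changes were picked after their values were seen and are given by position as the file prints it. No genome build is named for these positions. Values along the stages are always in the order floral initiation, booting, milky stage, soft dough. On chromosome 1, the locus at 11339408 to 11340551 had 4658, 3879, 15709 and 11177 FPKM along the stages. It gained 6520 FPKM over the span, more than any other locus. On chromosome 8, the locus at 62029744 to 62031523 had 3258, 1530, 5995 and 6532 FPKM. On chromosome 9, a locus with no ID at 1187763 to 1188696 had 2400, 1646, 1049 and 5119 FPKM. Both of the latter first had lower values in a middle stage and ended above their start by just over the threshold, by 1.00 and 1.09 on the log2 scale. On chromosome 4, the locus at 1451114 to 1452111 had 495, 450, 1698 and 2012 FPKM, with most of its difference between booting and milky stage.

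Among the largest FPKM losses the courses differed. On chromosome 7, the locus at 5878228 to 5885271 had 4822 FPKM at floral initiation and 4651 at booting, then 731 and 702 at the later stages. On chromosome 8, the locus at 56470317 to 56474560 declined over all 4 stages, with 5656, 4233, 3076 and 2007 FPKM. On chromosome 9, the locus at 3045193 to 3048685 had 4669, 3990, 1787 and 2251 FPKM, with its largest drop between booting and milky stage. The next largest loss was of another kind. A locus model with 4 IDs on chromosome 10, printed at 52122843 to 52228422, had 2089 FPKM at floral initiation and was listed at 0 at booting, milky stage and soft dough. A locus with no ID at the same printed range had 607 FPKM at floral initiation and was also listed at 0 at the other 3 stages. The drought table holds pot-grown plants of the same variety that got no water after the flag leaf appeared and were harvested at booting, at a soil moisture of about 13% (D1), 7% (D2) or 2% (D3), always in that order below. There, the model with 4 IDs had 2226 and 2015 FPKM and was listed at 0 at D3. Its values were thus either 2015 FPKM and above or exactly 0 in all 7 columns, and whether the zeros are failed estimates was not tested.

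By the rule for named loci, the 2 largest rises and the 2 largest falls were taken among loci that carry 1 ID and reach 5 FPKM at either end. Sobic.010G177800 (chromosome 10, 51567423 to 51568369) had 7.44, 91.4, 244 and 1490 FPKM along the stages. In the pots it had 52.9, 61.4 and 125 FPKM along the drying, all between its 2 field ends. Sobic.003G088400 (chromosome 3, 7689355 to 7690085) had 0.603, 2.23, 1.72 and 265 FPKM along the stages, and 30.3, 18.8 and 35.01 FPKM along the drying. Nearly all of its field difference of 7.37 log2 units thus lay in the last step, while all pot values were above the first 3 field values.

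Both named falls were spread over the whole span. Sobic.005G046700 (chromosome 5, 4444213 to 4445054) had 969, 529, 54.2 and 3.62 FPKM along the stages, a log2 difference of -7.71. Its pot values of 39.8, 82.6 and 3.88 FPKM along the drying were below the field value at booting. Sobic.002G109100 (chromosome 2, 13271050 to 13272067) had 102, 33.2, 1.35 and 0.105 FPKM, a log2 difference of -6.54, and 0.371, 3.59 and 0.154 FPKM along the drying. All 4 named loci have printed ranges of 731 to 1018 bases. The 12 largest rises by the same rule spanned log2 differences of 5.73 to 7.46 with 56.1 to 1490 FPKM at soft dough. The 12 largest falls spanned sizes of 5.14 to 7.71 with 67.5 to 1376 FPKM at floral initiation.

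The 3 steps use the same end columns as the contrast, so their values describe the course of loci already chosen. The median level of the 2726 higher loci was 2.92, 4.34, 9.38 and 14.2 FPKM along the stages. The median level of the 2604 lower loci was 14.7, 12.5, 4.65 and 3.56 FPKM. Little of either difference was passed by booting: the median higher locus had covered 14.1% of its log2 difference and the median lower locus 12.3%. By milky stage the median lower locus had covered 88.05% and the median higher locus 75.03%. This order was not seen among loci with 100 FPKM or more in the higher column, where the median lower locus had covered 84.3% and the median higher locus 86.1%.

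**Figure D2:**
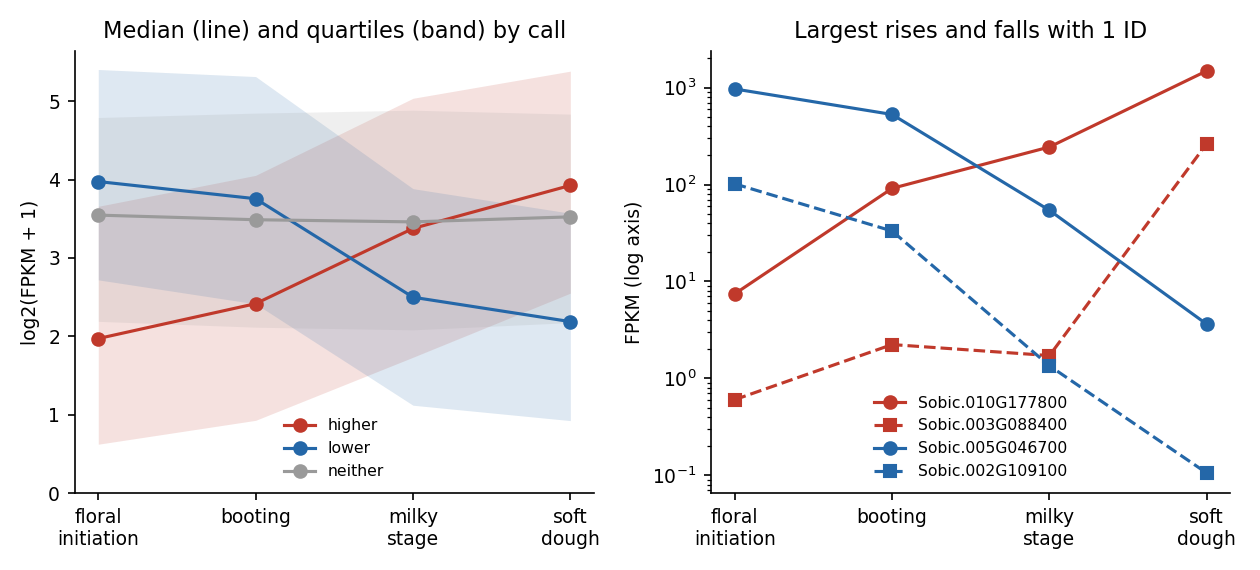
Left, the median (line) and quartiles (band) of log2(FPKM + 1) at the 4 stages for loci higher, lower or neither at soft dough; right, the FPKM of the 4 named loci on a log axis. The medians of the higher and lower loci cross between booting and milky stage, and of the named loci Sobic.003G088400 alone stays low until soft dough.

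Of the lower loci, 1839 (70.6%) had their largest step between booting and milky stage, 403 (15.5%) before it and 362 (13.9%) after it. Of the higher loci, 1492 (54.7%) had their largest step there, 386 (14.2%) before it and 848 (31.1%) after it. Weighted by size, the step from booting to milky stage held 70.2% of the summed log2 difference of the lower loci and 45.8% of that of the higher loci, and the last step held 15.4% and 34.2%. The contrast was wider among large differences. Of the 204 loci lower by at least 3 log2 units, 169 (82.8%) had the largest step between booting and milky stage and 17 (8.33%) in the last step. Of the 232 loci higher by at least 3, 90 (38.8%) had it between booting and milky stage and 107 (46.1%) in the last step.

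**Figure D3:**
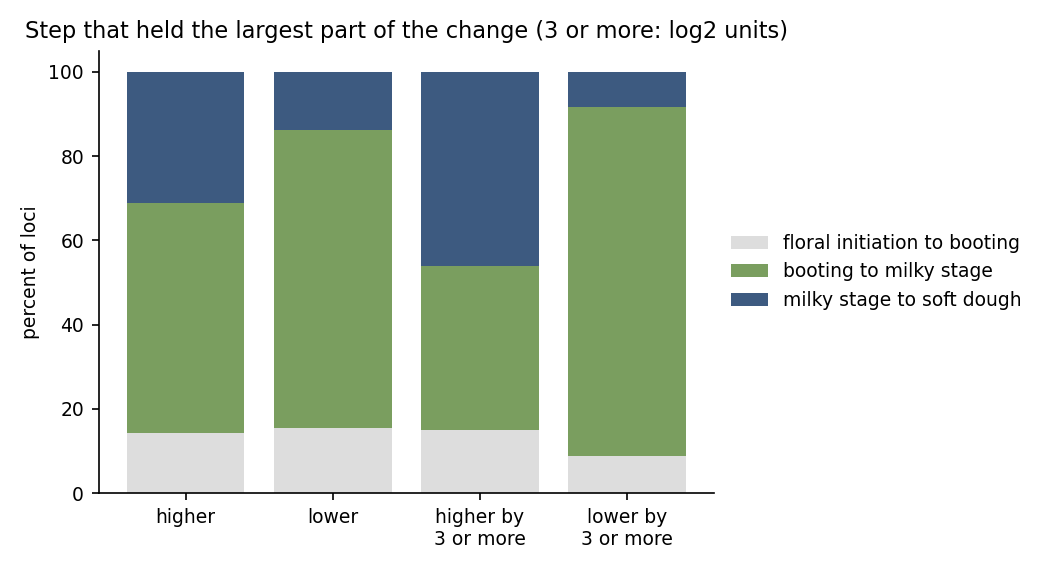
Stacked bars give the percent of loci whose largest change, in the direction of the whole difference, fell in each of the 3 steps; the left bars hold all 2726 higher and 2604 lower loci and the right bars the 232 and 204 with at least 3 log2 units. The last step takes 46.1% of the large rises and 8.33% of the large falls.

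The directions were more alike among abundant loci. Of the 284 lower loci with 100 FPKM or more at floral initiation, 219 (77.1%) had the largest step between booting and milky stage, and their median step from floral initiation to booting was 0.02 log2 units. Of the 328 higher loci with 100 FPKM or more at soft dough, 212 (64.6%) had their largest step between booting and milky stage and 61 (18.6%) in the last step. For the abundant lower loci the last step was the largest at 49 (17.3%), so that the late shares of both directions were close at this level.

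Many courses were not steady. All 3 steps went in the direction of the difference, or were flat, at 819 higher loci (30%) and 991 lower loci (38.1%). A middle stage lay above both ends at 885 higher and 939 lower loci, and below both ends at 924 and 825. Few went far past the ends: a middle stage was at least 1 log2 unit above both at 89 higher and 82 lower loci, and at least 1 below both at 88 and 63. The highest stage of a higher locus was soft dough at 1841 loci (67.5%) and milky stage at 787 (28.9%). The highest stage of a lower locus was floral initiation at 1665 loci (63.9%) and booting at 897 (34.4%).

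Among measured loci, those with short printed ranges were called more often. Without the FPKM floor the order turned, with the same 2726 loci higher and 2604 lower. A locus under 1 FPKM in both columns cannot reach a difference of 1. Dropping the floor thus added only loci that could not be called, and is no check on the shares among measured loci. Of all loci with ranges up to 1 kb, 5.12% were then higher and 3.46% lower, against 7.21% and 8.42% for ranges over 5 kb. The printed range includes introns and is not the transcript length. Of the 708 measured loci with a range of up to 1 kb, 29.7% were higher at soft dough and 20.1% lower. Of the 7796 with a range over 5 kb, 10.2% were higher and 12% lower. The shares for all measured loci were 14.7% and 14%. Short loci had lower levels, with a median of 4.94 FPKM in the higher column against 14.1 FPKM for those over 5 kb, and fewer fragments stand behind a given FPKM on a short locus. The part of fragment number in these shares was not tested. Within each class of level the share of higher loci was smaller the longer the range. At 100 FPKM or more, 42.9% of the 70 loci of up to 1 kb were higher, 31.6% of the 206 between 1 and 2 kb, 20.3% of the 797 between 2 and 5 kb and 15.3% of the 464 over 5 kb. The falls at that level stood at 21.4%, 29.1%, 14.4% and 20.3%, with no such order. Between 1 and 5 FPKM the falls had the order of the rises, with 18.8%, 15.9%, 11.4% and 8.47%. Between 5 and 20 FPKM the falls stood at 23.8%, 24.3%, 14.7% and 11.7%. Between 20 and 100 FPKM they stood at 16.8%, 22.4%, 14.7% and 13.2%. In neither of these classes were the shortest ranges on top. With a pseudocount of 5, 14.7% of the measured loci of up to 1 kb were higher and 4.91% of those over 5 kb. The falls then made up 7.77% and 6.36%. The 100 largest rises with 1 ID and 5 FPKM or more had a median range of 1894.5 bases and the 100 largest falls one of 1981, against 4434 bases for all loci that met those 2 criteria.

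**Figure D4:**
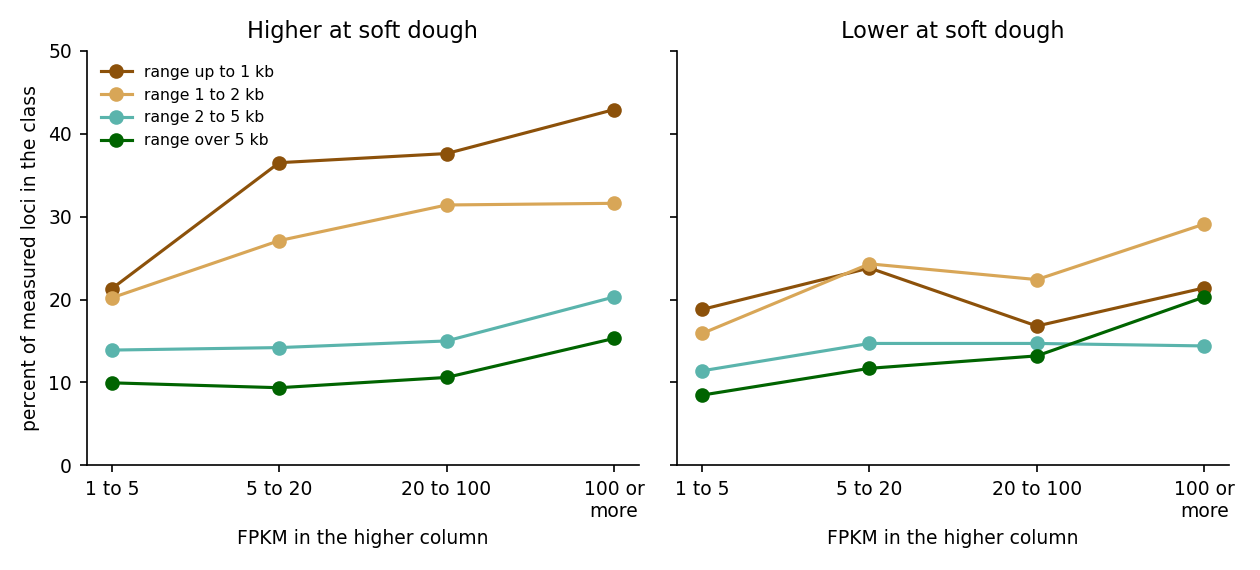
Percent of measured loci that were higher (left) or lower (right) at soft dough, by FPKM in the higher column (x axis) and by length of the printed range (line colour). For the rises the line of the shortest ranges is on top at every level, from 21.3% to 42.9%, and that of ranges over 5 kb at the bottom, from 9.36% to 15.3%.

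Loci without an annotation ID were called about as often as those with 1 ID. Of 1046 measured loci with no ID, 14.5% were higher and 14.7% lower, close to the 14.9% and 13.9% of the 16418 loci with 1 ID, at a lower median level of 4.06 against 13.4 FPKM. The 1104 loci with several IDs were higher in 11.1% and lower in 14.7%. Among the loci listed at 0 at one end with 5 FPKM or more at the other, those with no ID were 6 of 26 rises and 7 of 15 falls, while they made up 5.63% of all measured loci. Across the chromosomes, the share of higher loci ran from 11.8% on chromosomes 7 and 8 to 17.6% on chromosome 9, and the share of lower loci from 12.9% on chromosome 9 to 16.1% on chromosome 7. Overlapping models shared a printed range at 2130 measured loci, of which 605 were called. In 42 of the 958 ranges with 2 or more measured loci, one locus was higher and another lower, so fragments divided among models may enter those calls.

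Neighbouring loci tended to be called alike. With 1 locus per printed range in chromosome order, 19.5% of the loci that followed a higher locus without overlap were also higher, where 14.8% of all such following loci were. After a lower locus, 17.4% were lower, where 14% of all were. The opposite call was rarer than its background in both cases, with 12.4% lower after a higher locus and 12.3% higher after a lower one. For neighbours at least 10 kb apart, the shares called alike were 20.1% for the rises and 16.5% for the falls, against 15.5% and 14.6% of all such neighbours. Runs of at least 4 measured neighbours called in one direction numbered 36, of which 24 were higher (101 loci) and 12 lower (51 loci). With a pseudocount of 5 there were 6 and 1.

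The longest run held 6 loci on chromosome 6, from 4498652 to 4684050, all higher at soft dough by 3.22 to 6.62 log2 units. Along the stages, its first locus had 2.47, 0.237, 0.636 and 341 FPKM. Its highest, at 4669311 to 4670061, had 11.9, 0.102, 1.58 and 1008 FPKM. The last, at 4682490 to 4684050, had 29.04, 3.54, 6.64 and 397 FPKM. All 6 had their lowest value at booting, so that their floral initiation value lay above both middle stages and below soft dough. The run lies in a wider group. Between 4247748 and 4726743 there were 16 measured loci, of which 9 were higher and 2 lower. The 3 higher loci outside the run included one at 4271548 to 4273358 with 0.840, 1.74, 1.63 and 153 FPKM and one at 4725936 to 4726743 that was listed at 0 at floral initiation and had 9.63, 11.7 and 93 FPKM at the later stages. The 2 lower ones, between 4701425 and 4719660, had 199 and 701 FPKM at floral initiation and 55.04 and 313 at soft dough. In the drought table, 4 loci of the run were found by ID and range. Of these, 3 were at 0.155 FPKM or less in all 3 columns, and the last had 0.921, 3.33 and 3.10 FPKM along the drying.

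A second group lay on chromosome 1, from 1048570 to 1171177, with 4 neighbouring loci higher by 2.90 to 4.24 log2 units. The first had 42.1, 32.7, 213 and 321 FPKM along the stages, the second 0.182, 0.888, 2.17 and 21.4. The third had 16.5, 24.9, 110 and 211 FPKM, and the last 19.6, 10.6, 30.8 and 269. The second and the last had their largest step between milky stage and soft dough, the other 2 between booting and milky stage. On chromosome 5, from 67076368 to 67146299, 4 neighbours had medians of 3.19, 4.54, 46.9 and 110 FPKM. On chromosome 4, from 62258709 to 62361336, 5 neighbours had medians of 6.29, 6.11, 4.84 and 26.2 FPKM. The last step was the largest at 3 of these 5, while one, at 62309596 to 62313619, had 37.02, 53.2, 118 and 98.3 FPKM.

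On chromosome 3, from 9750104 to 9809195, 5 loci had log2 differences of -3.03 to -1.52. The highest of them had 283, 411, 54.4 and 41.4 FPKM along the stages, and the lowest had 5.68, 2.36, 0.712 and 0.933. On chromosome 4, from 12081743 to 12187676, 5 loci had log2 differences of -2.71 to -1.32, with medians of 25.4, 16.5, 11.2 and 9.58 FPKM. On chromosome 3, from 17353612 to 17804049, 5 loci had medians of 6.53, 6.65, 4.18 and 1.19 FPKM. The last step was the largest at 3 of these 5, among them the locus at 17801831 to 17804049 with 12.2, 7.52, 4.18 and 1.12 FPKM. The largest fall inside any run of lower loci was on chromosome 3 at 44928195 to 44929850, with 249, 150, 14 and 6.08 FPKM. Whether the neighbours of a run are separate genes or copies that share reads was not tested.

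**Figure D5:**
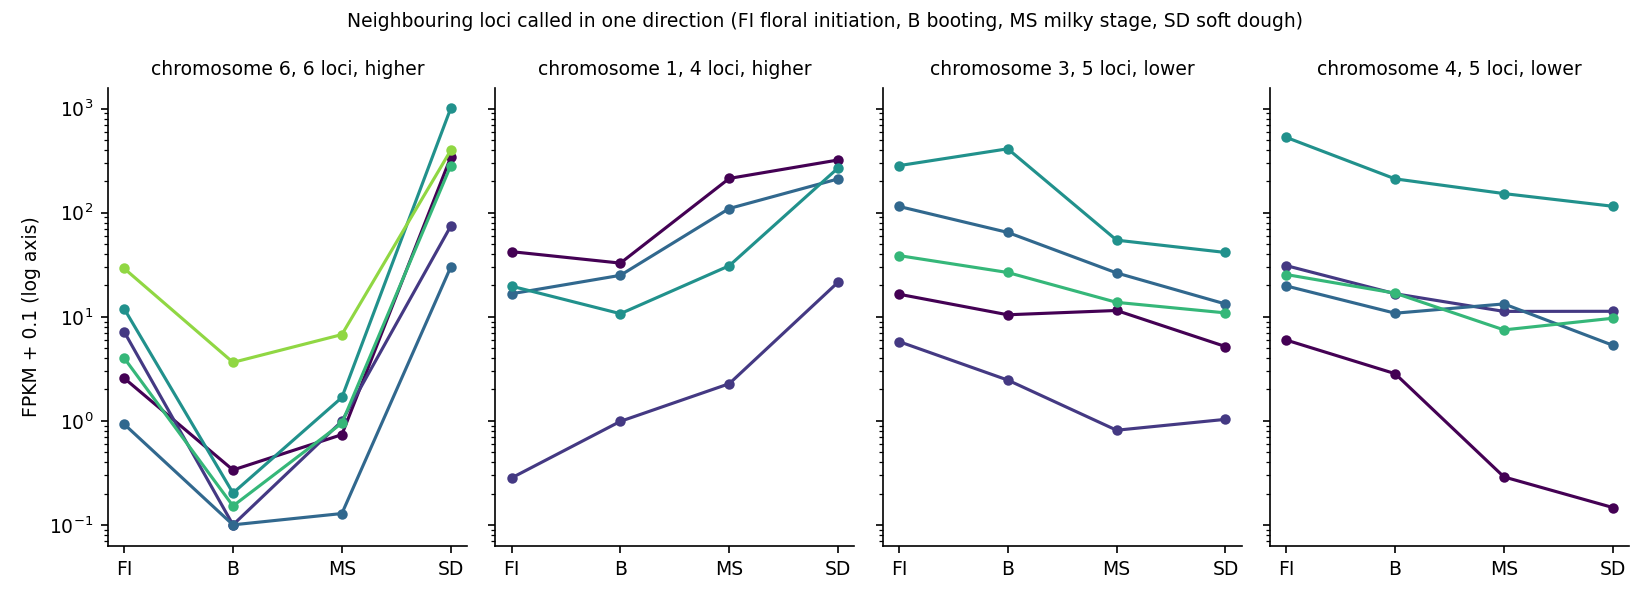
FPKM plus 0.1 on a log axis at the 4 stages for the loci of 4 runs, 1 line per locus. The 6 loci on chromosome 6 drop at booting and end highest at soft dough, the 4 on chromosome 1 end highest at soft dough, and the 5 loci each on chromosomes 3 and 4 end below their start.

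Among the 100 largest rises, with log2 differences of at least 3.54, 19 lay within 200 kb of another of the 100, in 7 groups. The largest held 6 loci on chromosome 6 from 4498652 to 4726743, which are the 5 loci of the run with 1 ID and the higher locus at 4725936. Among the 100 largest falls, with sizes of at least 3.60, 13 did, in 6 groups. The largest of these held 3 loci on chromosome 8 between 6640952 and 6827848. Among the falls, 2 loci that share 1 printed range on chromosome 2, from 3103060 to 3114102, formed one of the groups.

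The pot-grown plants give the level of the same loci outside the contrast, in columns that were normalized separately. Of the measured loci, 13005 were matched by ID and range between the tables. The 2021 higher loci among them had medians of 7.19, 5.61 and 5.24 FPKM along the drying. Their field medians were 3.13 at floral initiation, 4.52 at booting and 14.7 at soft dough. The 1792 lower loci had 9.83, 8.73 and 9.12 FPKM along the drying. Their field medians were 15.7 at floral initiation, 13.6 at booting and 3.79 at soft dough. Loci chosen for a difference between 2 ends tend to lie between those ends elsewhere, so the rule itself favours pot medians between them. All 3 drought columns were under 1 FPKM at 18% of the higher, 10.4% of the lower and 8.3% of all matched loci. With the same threshold, 3.3% of 11856 matched loci measured in both tables were higher at D3 than at D1 and 7.46% were lower. Among the 118 of these that were higher at soft dough by at least 3 log2 units, 19.5% were higher at D3 and 33.9% lower. Among the 141 that were lower by at least 3, 9.93% were higher and 27% lower. Both groups were thus called in either direction more often than the background. The lower call was the more frequent in each, as it was among all matched loci. Of all 1640 loci higher at soft dough and measured in both tables, 4.63% were higher at D3 and 19.2% lower. Of the 1590 lower at soft dough, 6.73% were higher at D3 and 11.9% lower. The background of 3.3% and 7.46% includes these same loci, and whether the tilt differs between the sets was not tested.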

How the data were processed

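RNA from the middle internode was sequenced in 14 libraries in 7 groups of 2, of which 4 libraries in 2 groups (floral initiation and soft dough) are compared here. The authors deposited FPKM values, 1 column per group, per the file headers. Per the submitters' processing notes, HISAT2 2.0.5, Bowtie2 2.2.9, Cuffdiff and cutadapt 1.8.1 were used, in roles that the notes leave out. Genome build, filters and the strand setting of the counting: not given in the sources used here. Library totals are unknown, and loci overlapping on opposite strands may share fragments.

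Differences are log2(FPKM + 1) at soft dough minus floral initiation, called at 1 or more either way among loci with 1 FPKM or more in the higher column. Lengths are those of the printed range. Drought values were set beside the field values only where IDs and range matched. Loci were named by ID as the 2 largest changes each way (1 ID, 5 FPKM or more), since no table paired IDs with genes; others were chosen after their values were seen. The comparison, thresholds and lists were chosen with earlier results of these data known. The code for calls, courses and runs was checked on simulated data with planted changes. The simulated data held no variation between plants or libraries, so they give no error rate for the calls. Python 3.11.15, pandas 2.3.3 and matplotlib 3.10.9 were used.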

Additional observations from a re-analysis of the deposited data

How the results depend on the processing

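No paired analysis was possible because each group has 1 pooled column, and leaving out a library was not possible for the same reason. The gene lists were not run. Of 14 counts and shares recomputed under 10 alternatives, none moved by more than 1.5 times with columns rescaled to the same sum, median-of-ratios size factors, the 50 most abundant loci left out, 1 locus per printed range, only loci with 1 ID, or loci listed at 0 left out. The balance of directions turned: 51.1% of the calls were higher as deposited and 48.4% with median-of-ratios size factors, which moved the median log2 difference from 0.03 to -0.02.

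A pseudocount of 5, which shrinks every difference, moved all 14. It gave 1373 loci higher and 1349 lower, 64 and 87 by 3 log2 units, 762 higher and 1011 lower loci with the largest step from booting to milky stage, and 425 and 165 with it from milky stage to soft dough. Ranges up to 1 kb then had 14.7% higher and 7.77% lower, ranges over 5 kb 4.91% and 6.36%, and there were 6 runs higher and 1 lower. A pseudocount of 0.1 gave 736 loci higher and 555 lower by 3 log2 units, 573 lower loci with the largest step at the end, and 38 runs higher and 22 lower. Without a filter, loci near 0 enter: 5.12% of ranges up to 1 kb were higher and 3.46% lower, with 6 and 3 runs. Ranges over 5 kb then had 7.21% higher and 8.42% lower, so the order of short and long ranges turned. The loci let in could not reach a difference of 1, so the calls themselves stayed the same. A filter at 5 FPKM gave 529 higher loci with the largest step at the end, and 13 and 5 runs. The number of runs therefore depends on which loci count as measured. The depth of each library is unknown, and counting error was not set beside any value.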
